A study of Homo sapiens with 24 samples.

Results

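The keratins described here are *KRT7*, *KRT8*, *KRT18*, *KRT19*, *KRT20*, *KRT23*, *KRT80*, *KRT81* and *KRT86*, followed across PLC/PRF/5 and SNU-449, established human hepatocellular carcinoma (HCC) cell lines. They were found on the array through the RefSeq accession that each probe carries. Of the 9 listed genes, 8 matched 12 probes, out of 31204 named genes and 58201 probes in all. *KRT86* matched none by name, because a probe for it on the array carries an older accession that the naming table does not hold. That probe was left unnamed, so *KRT86* was not analysed here. *KRT8* had 3 probes, *KRT18* and *KRT23* had 2 each, and the other genes had 1 each.

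The study asked what inhibition of signalling by transforming growth factor beta (TGFβ) does to the transcriptome of these lines. In each line 3 independent cultures were left as untreated controls, 3 received 1 ng/mL recombinant human TGFβ1, 3 received 10 µM galunisertib, and 3 received both agents at those doses. All 24 cultures, controls included, had been kept without serum overnight, and RNA was taken after 16 h of treatment. Galunisertib (LY2157299) is a small molecule that blocks the kinase of the type I TGFβ receptor, which otherwise phosphorylates the SMAD transcription factors. Each line is a single established line, so the replicates are cultures and not patients or tumors.

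Keratins form the intermediate filaments of epithelial cells, and a filament is built from pairs of a type I and a type II protein. Hepatocytes carry essentially the KRT8 and KRT18 pair, whose genes lie next to each other on chromosome 12, while bile duct cells add KRT7 and KRT19. KRT20 is known from intestinal epithelium, KRT80 from many epithelia, and KRT81 and KRT86 are type II keratins first described in hair. Among the genes listed, *KRT7*, *KRT8*, *KRT80*, *KRT81* and *KRT86* encode type II keratins on chromosome 12, *KRT18* is a type I gene on chromosome 12, and *KRT19*, *KRT20* and *KRT23* are type I genes on chromosome 17.

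The 24 one-colour arrays lay on 3 slides of 8, and the replicate number was also the slide. A group never changed its place from slide to slide, and TGFβ arrays filled one row of the slide and the rest the other, so place and treatment cannot be told apart. Between 41.6% and 49.6% of probes were well above background, and 0 spots were saturated. In PLC/PRF/5 controls all 8 hepatocyte markers examined were well above background, with a summed level of 548 to 814 times the array's 75th percentile. In SNU-449 controls 4 of the 8 were, with a summed level of 0.998 to 1.07, and albumin, *APOA2*, *APOB* and *HNF4A* were well above background on none of the SNU-449 control arrays. Of 6 fibroblast and stellate markers, 1 was well above background on every control array of PLC/PRF/5 and 3 in SNU-449. The summed levels were 1.85 to 2.03 in PLC/PRF/5 controls and 86.6 to 119 in SNU-449 controls. Of the 3 tested by limma at an adjusted p under 0.05, 1 was higher in PLC/PRF/5 and 2 lower, against 33.9% and 34.6% of genes. The TGFβ target genes *SKIL*, *SMAD7* and *PMEPA1*, known feedback regulators of the pathway, had log2 rises of 1.63, 0.80 and 2.59 with TGFβ in PLC/PRF/5, and log2 differences of -2.62, -1.90 and -3.50 with galunisertib in SNU-449 (limma, adjusted p from 8.6e-06 to 0.00106). The *SMAD7* call in PLC/PRF/5 was lost without replicate 2, with differences of 0.75 to 0.87 when 1 replicate was left out.

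Of the 9 genes, *KRT8* and *KRT20* had a sequence in the RefSeq promoter table used here (GRCh38.p14). The *KRT8* sequence is shown because *KRT8* was among the keratins that changed with treatment. It spans chr12:52926420-52926719 on the minus strand, from 250 bases before to 50 bases after the annotated start of the gene, and which start site the cells used was not measured. Capitals mark CAGAC, the letters that SMAD proteins are known to bind.
KRT8 promoter: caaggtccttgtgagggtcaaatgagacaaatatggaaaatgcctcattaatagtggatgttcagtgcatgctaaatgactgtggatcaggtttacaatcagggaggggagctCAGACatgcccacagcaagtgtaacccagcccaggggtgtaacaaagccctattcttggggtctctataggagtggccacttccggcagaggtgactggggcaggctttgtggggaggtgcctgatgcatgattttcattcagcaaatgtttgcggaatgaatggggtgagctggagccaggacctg
CAGAC or its reverse complement GTCTG occurred 1 time in this window, with its first base at -137 from the start, and in 45.3% of the 35116 promoter windows of the table. TGANTCA, the letters of an AP-1 element, occurred 0 times here and in 7.71% of the windows, and no letters of the motifs overlapped. Both strands were read. These are matches of letters, and binding was not measured.

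All levels below are log2 of the signal over the 75th percentile of its array, so a difference of 1 is a doubling, and levels of different probes cannot be set against each other. Values under -4.13, the weakest signal the scanner software called well above background on the median array, were set to that floor and have no order. A gene was called when limma's p, adjusted by the Benjamini-Hochberg method over all genes tested, was under 0.05, and the study's own limit, a fold above 2 with an unadjusted P under 0.001, is given beside it. Where a gene has several probes, the value is that of the probe with the highest mean level. In cultures measured in bulk, fewer cells of a kind and less RNA per cell cannot be told apart.

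Without treatment *KRT8*, *KRT18* and *KRT23* were higher in PLC/PRF/5, and *KRT7* and *KRT80* were higher in SNU-449. In all, 5 of the 7 keratins tested were called, 3 higher in PLC/PRF/5 and 2 lower, against 68.5% of the 17902 genes tested, 33.9% higher and 34.6% lower, and the same 5 passed the study's limit, against 34.3% of genes.

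*KRT8*, the type II partner in hepatocyte filaments, stood at 5.90, 6.41 and 6.32 in the PLC/PRF/5 controls and at 2.42, 2.46 and 2.67 in the SNU-449 controls. The lines did not overlap, and the level was 12.9-fold higher in PLC/PRF/5 (log2 3.69 ± 0.19, SE; limma, adjusted p 9.0e-13). *KRT18*, its type I partner, stood at 8.80, 8.50 and 8.61 against 6.34, 6.05 and 6.17. That was 5.47-fold higher in PLC/PRF/5 (log2 2.45 ± 0.09; limma, adjusted p 2.4e-15). The second probes of both genes pointed the same way, with log2 differences of 4.50 for *KRT8* and 3.04 for *KRT18*. The third *KRT8* probe, which carries the accession of a non-coding transcript variant, was instead 0.31 lower in PLC/PRF/5 (limma over all probes, adjusted p 0.0108).

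*KRT7*, the biliary type II keratin, was the reverse of the hepatocyte pair, at 2.94, 3.36 and 3.11 in PLC/PRF/5 and at 7.98, 8.38 and 8.35 in SNU-449. The level was 34.3-fold higher in SNU-449 (PLC/PRF/5 minus SNU-449, -5.10 ± 0.18 on the log2 scale; limma, adjusted p 1.6e-15). *KRT80* stood at 5.23, 5.23 and 5.36 in SNU-449, while in PLC/PRF/5 1 of the 3 control arrays was well above background, at -3.69. With the PLC/PRF/5 arrays at or near the floor, the fitted difference of -9.15 ± 0.13 (limma, adjusted p 6.8e-22) moved from -9.57 to -6.87 over the 14 other settings, under all of which it was called.

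*KRT23* behaved as an on or off gene between the lines. The PLC/PRF/5 controls stood at 4.71, 4.71 and 4.89, and in SNU-449 both *KRT23* probes were at the floor on all 12 arrays. PLC/PRF/5 had at least 454-fold more signal (limma, adjusted p 2.6e-26). Here and below, "at least" sets the measured group against the weakest signal well above background on each array of the group that was not. *KRT81* did not differ detectably, at 3.87, 4.27 and 3.91 in PLC/PRF/5 and 3.81, 3.78 and 4.02 in SNU-449 (log2 0.15 ± 0.72; limma, adjusted p 0.866).

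*KRT19*, the other biliary keratin, was near or at the floor in both lines. In PLC/PRF/5 it was well above background on 1 of 3 control arrays and on all 3 with galunisertib, at -3.31, -3.46 and -3.59, and it entered the tests only through that group. In SNU-449 it was at the floor on all 12 arrays. *KRT20* was at the floor on all 24 arrays and was not tested. Under TGFβ alone *KRT19* was well above background on 0 of 3 arrays in either line.

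**Figure D1:**
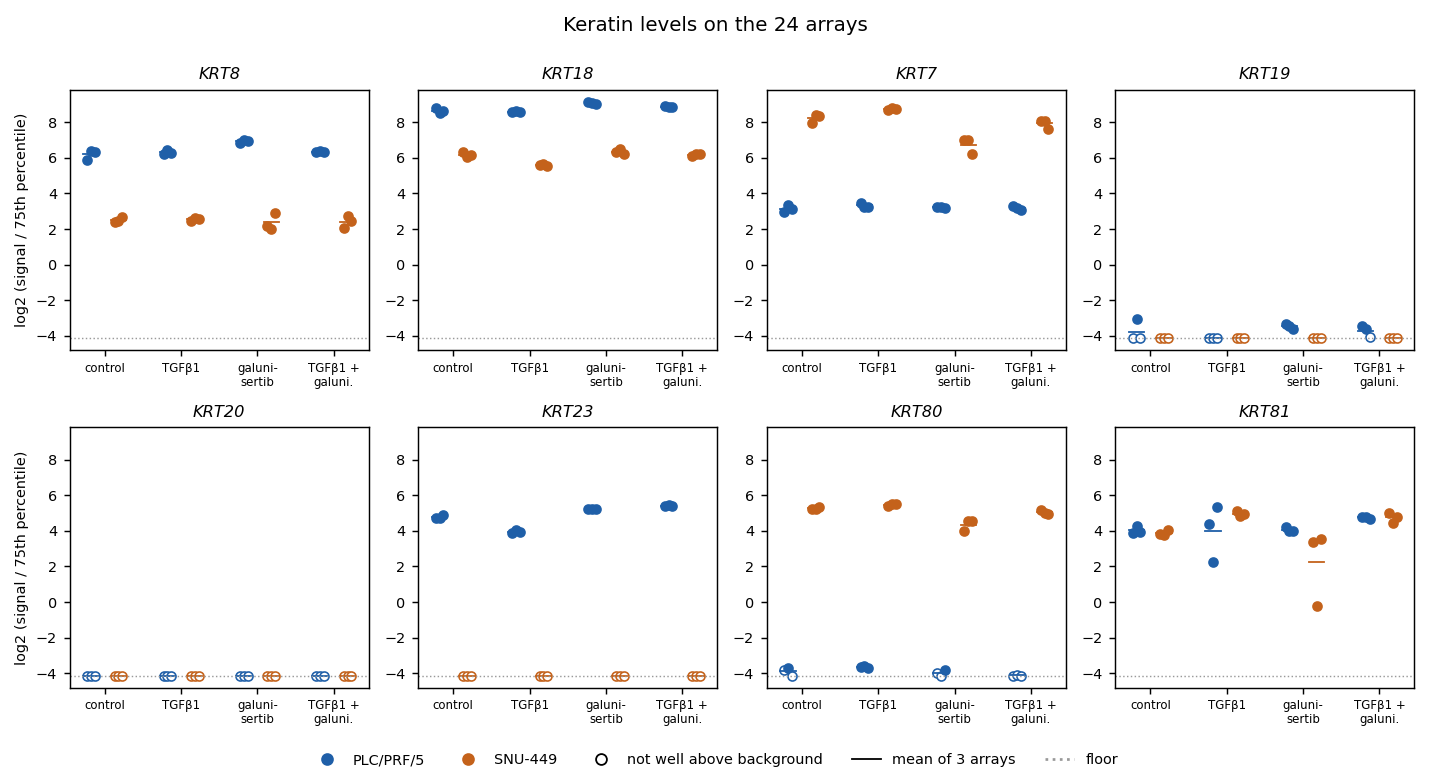
Levels of the 8 measured keratins on each of the 24 arrays, as log2 of signal over the 75th percentile of the array, by treatment, with PLC/PRF/5 in blue and SNU-449 in orange. Open points were not well above background, bars are means of 3 arrays and the dotted line is the floor at -4.13; KRT23 sits at the floor in SNU-449 and KRT80 at or near it in PLC/PRF/5, while the KRT8 and KRT7 points of the lines lie far apart in opposite directions.

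With TGFβ alone 1 keratin was called in each line. Among the 7 keratins tested in PLC/PRF/5 only *KRT23* was called, against 13.5% of the 16684 genes tested (6.27% higher, 7.24% lower), and 0 passed the study's limit, against 1.1% of genes. In SNU-449 only *KRT18* was called among the 5 tested, against 10.5% of the 16101 genes tested (5.73% higher, 4.75% lower), and 0 passed the study's limit, against 2.33%.

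*KRT23* in PLC/PRF/5 went from 4.71, 4.71 and 4.89 in controls to 3.86, 4.04 and 3.95 with TGFβ. It fell by 0.82 on the log2 scale (SE 0.08; limma, adjusted p 8.7e-05), and the groups did not overlap. The second probe, at 1.31, 1.28 and 1.37 in controls and 0.45, 0.48 and 0.44 with TGFβ, fell by 0.86. Of the 8 hepatocyte markers 4 also fell, among them albumin by 0.94, while their summed level was 551 to 685 against 548 to 814 in controls, and their part in the *KRT23* result was not tested. In this line *KRT8* stayed within its spread, at 6.22, 6.45 and 6.28 with TGFβ (0.11 ± 0.12; limma, adjusted p 0.631). *KRT18* did likewise, at 8.57, 8.64 and 8.55 (-0.05 ± 0.08; adjusted p 0.763).

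In SNU-449 *KRT18* went from 6.34, 6.05 and 6.17 to 5.60, 5.65 and 5.56. It fell by 0.58 (SE 0.10; limma, adjusted p 0.0045), again without overlap. The other *KRT18* probe read 3.14, 3.21 and 2.93 against 3.41, 3.59 and 3.63 in controls, a difference of -0.45 that was not called over all probes (adjusted p 0.107). Leaving out 1 replicate number in all groups of a line gave differences from -0.67 to -0.50, and the call was lost without replicate 1 (-0.50) or replicate 3 (-0.57) and with arrays scaled to their median. The fibroblast markers summed to 191 to 207 with TGFβ against 86.6 to 119 in controls, led by *COL1A1*, with *PDGFRA*, *DCN* and *LUM* well above background on none of these arrays, and their part was not tested. *KRT8*, the partner, stood at 2.44, 2.63 and 2.54 with TGFβ and was not called (0.02 ± 0.23).

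The third *KRT8* probe departed from the other *KRT8* probes in SNU-449. It read 2.43, 2.21 and 2.42 in controls, 1.73, 1.87 and 1.85 with TGFβ, 3.00, 2.81 and 2.68 with galunisertib, and 2.38, 2.71 and 2.69 with both. Over all probes its fall of 0.54 with TGFβ and its rise of 0.77 from TGFβ to both agents were called (limma, adjusted p 0.0252 and 0.0023), and the 0.47 with galunisertib alone was not (adjusted p 0.0597). The rule of the highest mean took the first probe, at 2.46 over the 12 SNU-449 arrays, where the third had 2.40. The result given for *KRT8* in this line thus depends on which probe stands for the gene. As the third carries the accession of a non-coding variant, its changes need not be those of the coding transcript. The brighter probe ranged from 2.03 to 2.93 with galunisertib, wider than its 2.42 to 2.67 in controls.

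**Figure D2:**
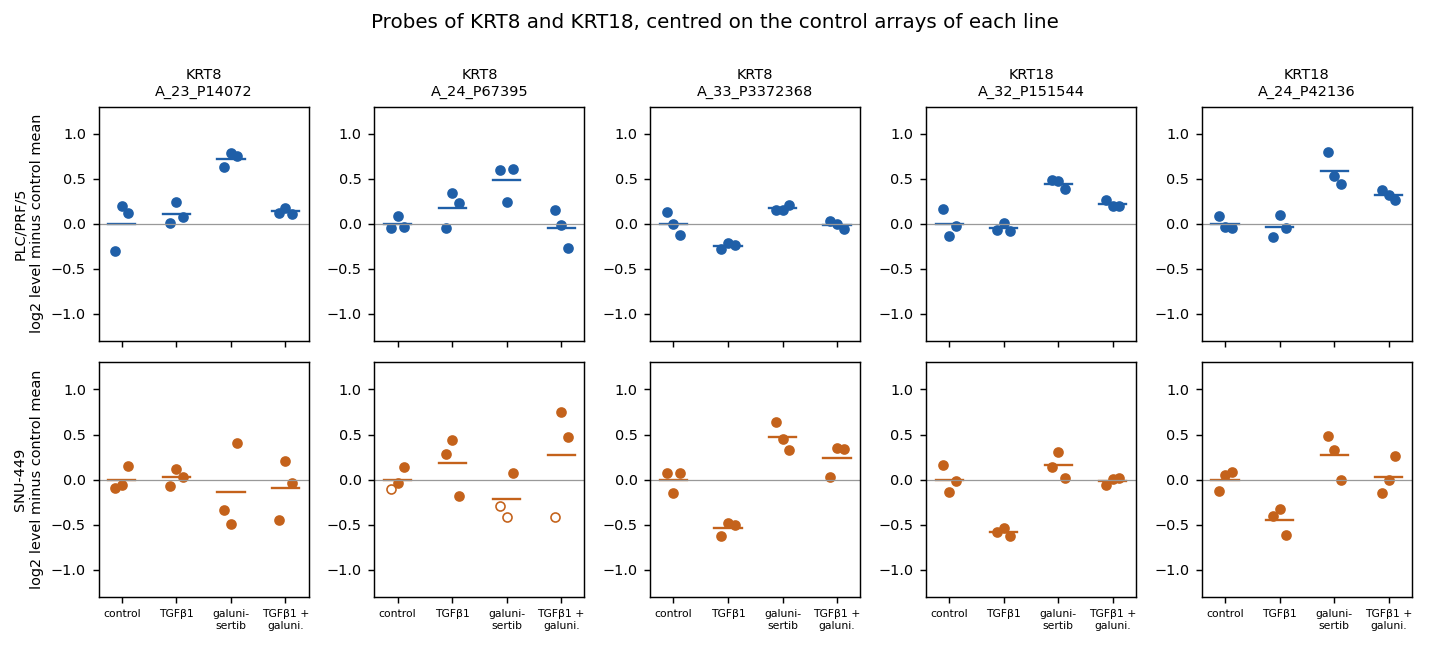
Each probe of KRT8 and KRT18 by treatment, as log2 level minus the mean of the 3 control arrays of the same line, with PLC/PRF/5 in the upper and SNU-449 in the lower row; points are arrays, open where not well above background, and bars are means of 3. In SNU-449 the third KRT8 probe and both KRT18 probes are lower with TGFβ on all 3 arrays, while the first KRT8 probe scatters around 0.

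*KRT7* in SNU-449 was higher on all 3 TGFβ arrays, at 8.70, 8.79 and 8.76 against 7.98, 8.38 and 8.35, but the difference of 0.51 ± 0.22 was not called (limma, adjusted p 0.179). *KRT80* was likewise higher without overlap, at 5.38, 5.53 and 5.48, and not called (0.19 ± 0.14; adjusted p 0.475). *KRT81* read 5.13, 4.82 and 4.94 against 3.81, 3.78 and 4.02, a difference of 1.09 ± 0.79 that was not called (adjusted p 0.460).

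The wide error of *KRT81* came from 2 arrays. The probe read 2.27 on the second PLC/PRF/5 array with TGFβ, where the others read 4.36 and 5.34, and -0.25 on the second SNU-449 array with galunisertib, where the others read 3.35 and 3.56. Neither spot was flagged by the scanner software. The probe lies in column 2 of the array, and spots in the first 3 columns were more than 1 log2 unit below their group mates in 5.84% of cases, against 1.60% elsewhere, while the neighbouring spots on these 2 arrays had median deviations of -0.00042 and 0.02. Whether position accounts for the values was not tested. With both spots set missing, a choice made after the values were seen, the TGFβ difference in SNU-449 was called at 1.09 ± 0.15, and without replicate 2 it was 1.12 and also called. In PLC/PRF/5 the TGFβ difference of -0.03 became 0.83 ± 0.24 and was not called.

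With galunisertib alone *KRT8*, *KRT18* and *KRT23* rose in PLC/PRF/5, and *KRT7* and *KRT80* fell in SNU-449. Of the 7 keratins tested in PLC/PRF/5, 3 rose, against 5.42% of genes called (3.67% higher, 1.75% lower), and 0 passed the study's limit, against 0.342%. In SNU-449 2 of 5 fell, against 7.43% (5.35% higher, 2.08% lower), and 1 passed the study's limit, against 1.14%.

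The hepatocyte pair rose together in PLC/PRF/5. *KRT8* went from 5.90, 6.41 and 6.32 to 6.83, 7.00 and 6.96, a rise of 0.72 or 1.65-fold (SE 0.12; limma, adjusted p 0.0099). *KRT18* went from 8.80, 8.50 and 8.61 to 9.11, 9.10 and 9.02, a rise of 0.44 or 1.36-fold (SE 0.08; adjusted p 0.0137). Every galunisertib array lay above every control array for both genes. Of the 8 hepatocyte markers 0 rose and 2 fell in the same comparison, with a median difference of -0.43 beside 0.05 over all genes and summed levels of 562 to 599 against 548 to 814, and their part was not tested.

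*KRT23* rose by 0.45 to 5.20, 5.24 and 5.21 (SE 0.08; limma, adjusted p 0.0095), and its second probe by 0.59. *KRT7* (0.09 ± 0.11) and *KRT81* (0.05 ± 0.57) were not called. All 3 calls were lost when any 1 replicate number was left out. They were also lost with arrays scaled to their median or not scaled, and under a plain t-test. The plain t-test took each gene's spread from the compared arrays alone. The study's own test also used a random variance model, so it was not the one run here. Leave-one-out differences were 0.61 to 0.78 for *KRT8*, 0.37 to 0.51 for *KRT18* and 0.40 to 0.51 for *KRT23*. The second *KRT8* probe rose by 0.48 and the third by 0.17, neither called over all probes (adjusted p 0.102 and 0.273), and the second *KRT18* probe rose by 0.59 (adjusted p 0.0178).

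*KRT7* in SNU-449 went from 7.98, 8.38 and 8.35 to 7.01, 6.97 and 6.20 with galunisertib, without overlap. It fell by 1.51, or 2.85-fold lower (SE 0.22; limma, adjusted p 0.0035), and passed the study's limit. *KRT80* went from 5.23, 5.23 and 5.36 to 3.99, 4.53 and 4.54, a fall of 0.92 (SE 0.14; adjusted p 0.0047).

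Leaving out 1 replicate number gave -1.78 to -1.19 for *KRT7*, with the call lost without replicate 1 (-1.78) or 2 (-1.56), and -1.03 to -0.76 for *KRT80*, with the call lost without replicate 2 (-1.03) or 3 (-0.97). Both calls were also lost under the plain t-test, which lacks the random variance model of the study's test. The summed fibroblast markers stood at 15.0 to 22.3 with galunisertib, with *COL1A1* down 2.61 and *ACTA2* up 0.79, and their part was not tested. *KRT18* read 6.33, 6.49 and 6.20 (0.16 ± 0.10) and *KRT8* 2.18, 2.03 and 2.93 (-0.14 ± 0.23), neither called. *KRT81* differed by -1.65 ± 0.79 and was not called (limma, adjusted p 0.226), and the difference was -0.41 with the 2 low spots set missing.

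**Figure D3:**
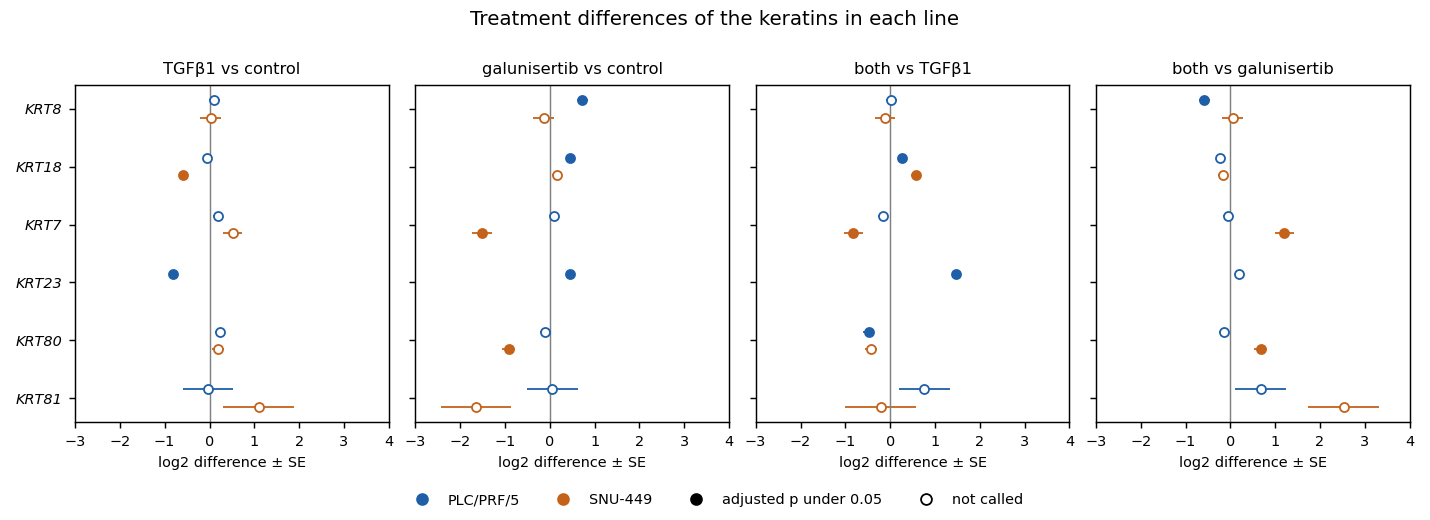
Log2 differences with their standard errors for 6 keratins in the 4 treatment comparisons of each line, PLC/PRF/5 in blue and SNU-449 in orange, with filled points called at an adjusted p under 0.05. KRT23 has no SNU-449 points since it was at the floor there; the filled points show KRT8, KRT18 and KRT23 higher in PLC/PRF/5 and KRT7 and KRT80 lower in SNU-449 with galunisertib, and the longest error bars are those of KRT81.

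The combination was set against each agent alone. Against TGFβ alone, PLC/PRF/5 had 2 keratins higher and 1 lower of 7, the lower one being *KRT80*, which was tested only because the TGFβ arrays read it, against 39.1% of genes called (25.8% higher, 13.3% lower), and 1 past the study's limit, against 3.09%. SNU-449 had 1 higher and 1 lower of 5, against 17.1% (9.72% higher, 7.35% lower), and 0 past the study's limit, against 3.81%. The comparisons with TGFβ alone share the TGFβ arrays with the first comparison, so their values are not independent of it.

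*KRT23* was the keratin that moved most in PLC/PRF/5, from 3.86, 4.04 and 3.95 with TGFβ to 5.41, 5.45 and 5.39 with both agents. It rose by 1.46, or 2.76-fold (SE 0.08; limma, adjusted p 8.9e-07), past the study's limit, and the second probe rose by 1.32. The call held under all 15 other settings tried, with differences from 1.23 to 1.64. With both agents the level lay above that of the controls and of galunisertib alone on every array, though the difference from galunisertib, 0.20 ± 0.08, was not called (adjusted p 0.111) and the second probe gave -0.13. Of the 8 hepatocyte markers 4 rose and 1 fell from TGFβ to both agents, with summed levels of 551 to 685 and 568 to 630, and their part was not tested.

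*KRT18* in PLC/PRF/5 read 8.89, 8.83 and 8.83 with both agents and rose by 0.26 (SE 0.08; limma, adjusted p 0.026), a call lost without any 1 replicate number (0.23 to 0.30). *KRT8* read 6.33, 6.39 and 6.32 and was not called against TGFβ alone (0.03 ± 0.12). Its other probes disagreed. Over all probes the third rose by 0.23 and was called (limma, adjusted p 0.0440), and the second differed by -0.22 and was not (adjusted p 0.279). *KRT80* entered the tests of this line only through the TGFβ group, where 3 of 3 arrays were well above background against 0 of 3 with both agents, so its call is given as a description. The level was at least 1.39-fold lower with both agents. The fitted difference of -0.48 moved from -0.60 to -0.12 over 14 other settings, and the call was lost under 7 of them, namely normexp, array-median scaling, no scaling, a halved floor, the authors' table and without replicate 1 or 2.

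In SNU-449 *KRT18* rose from 5.60, 5.65 and 5.56 to 6.12, 6.19 and 6.20, by 0.57 (SE 0.10; limma, adjusted p 0.0033), and the other probe by 0.48 (adjusted p 0.0592, not called). The call was lost without replicate 3 (0.53), with other scalings and with normexp background correction, where the difference was 0.29. *KRT7* fell from 8.70, 8.79 and 8.76 to 8.09, 8.07 and 7.63, by 0.82 (SE 0.22; adjusted p 0.0271), a call lost without any 1 replicate number (-0.93 to -0.66). The summed fibroblast markers stood at 35.1 to 68.7 with both agents against 191 to 207 with TGFβ. Of the 3 tested, 1 was called higher and 1 lower, against 9.72% and 7.35% of genes, and their part in either result was not tested. *KRT80* was lower without overlap, at 5.15, 4.98 and 4.96 against 5.38, 5.53 and 5.48, and not called (-0.43 ± 0.14; adjusted p 0.0613).

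Against galunisertib alone, which shows what adding TGFβ did with the receptor inhibitor present, 1 of 7 keratins was lower in PLC/PRF/5, against 8.55% of genes called (3.59% higher, 4.96% lower), and 0 passed the study's limit, against 0.294%. *KRT8* fell from 6.83, 7.00 and 6.96 to 6.33, 6.39 and 6.32, by 0.58 (SE 0.12; limma, adjusted p 0.0234). The second probe fell by 0.53 and was not called over all probes (adjusted p 0.0538), and the call of the first was lost without any 1 replicate number (-0.62 to -0.56) and with normexp background correction, where the difference was -0.27. *KRT18* moved the same way without overlap and was not called (-0.23 ± 0.08; adjusted p 0.0976).

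In SNU-449 2 of 5 keratins were higher with both agents than with galunisertib, against 1.9% of genes called (0.938% higher, 0.963% lower), and 1 passed the study's limit, against 0.702%. *KRT7* rose from 7.01, 6.97 and 6.20 to 8.09, 8.07 and 7.63, by 1.20 or 2.30-fold (SE 0.22; limma, adjusted p 0.0238). *KRT80* rose from 3.99, 4.53 and 4.54 to 5.15, 4.98 and 4.96, by 0.68 (SE 0.14; adjusted p 0.0418). Both calls were lost without any 1 replicate number, with differences of 1.09 to 1.26 for *KRT7* and 0.43 to 0.80 for *KRT80*. With the slide as a block *KRT80* was not called (adjusted p 0.0695) and *KRT7* was (adjusted p 0.0361). The fibroblast markers summed to 35.1 to 68.7 against 15.0 to 22.3 with galunisertib. Of the 3 tested, 1 was called higher and 1 lower, so they did not move together, and their part was not tested. *KRT81* was 2.53 ± 0.79 higher and not called (adjusted p 0.146), and 1.29 ± 0.17 higher and called with the 2 low spots set missing.

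*KRT7* and *KRT80* thus shared an order of means in SNU-449, lowest with galunisertib and highest with TGFβ. The neighbours galunisertib and both agents were separated by the test for both genes, though for *KRT80* not with the slide as a block, while controls and TGFβ were not separated by the test for either.

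The changes of the lines were then tested against each other. Of 7 keratins, 2 differed in their response to TGFβ, against 8.62% of genes (4.29% higher, 4.33% lower in SNU-449), and 3 in their response to galunisertib, against 5.87% (3.43% higher, 2.44% lower), with 0 and 1 past the study's limit, against 2.29% and 1.54%. These counts include *KRT23* in both and *KRT80* with galunisertib, each at or near the floor in 1 line, and over the 4 keratins well above background on every array 1 was called in each difference. *KRT7* differed in its galunisertib response, with -1.51 in SNU-449 and 0.09 in PLC/PRF/5 (difference -1.60 ± 0.25; limma, adjusted p 6.0e-04), and this call held under all 14 settings tried. *KRT80* changed by -0.92 against -0.10 (difference -0.81 ± 0.18; adjusted p 0.0115), where the PLC/PRF/5 arrays were at or near the floor and the call was lost without any 1 replicate number (-1.09 to -0.64).

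*KRT18* differed in its TGFβ response, with -0.58 in SNU-449 and -0.05 in PLC/PRF/5 (difference -0.53 ± 0.12; limma, adjusted p 0.0087), a call lost without any 1 replicate number (-0.55 to -0.52). *KRT8* with galunisertib gave -0.14 against 0.72, and the difference of -0.86 ± 0.27 was not called (adjusted p 0.0682), but was with the slide as a block (adjusted p 0.0378). That value is of the brightest probe. The third *KRT8* probe rose more in SNU-449, where its mean went from 2.36 to 2.83. In PLC/PRF/5 its mean went from 2.05 to 2.21, so the sign of the *KRT8* difference depends on the probe. The *KRT23* calls, 0.82 for TGFβ and -0.45 for galunisertib, only restate its changes in PLC/PRF/5, since SNU-449 had no level to change.

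**Figure D4:**
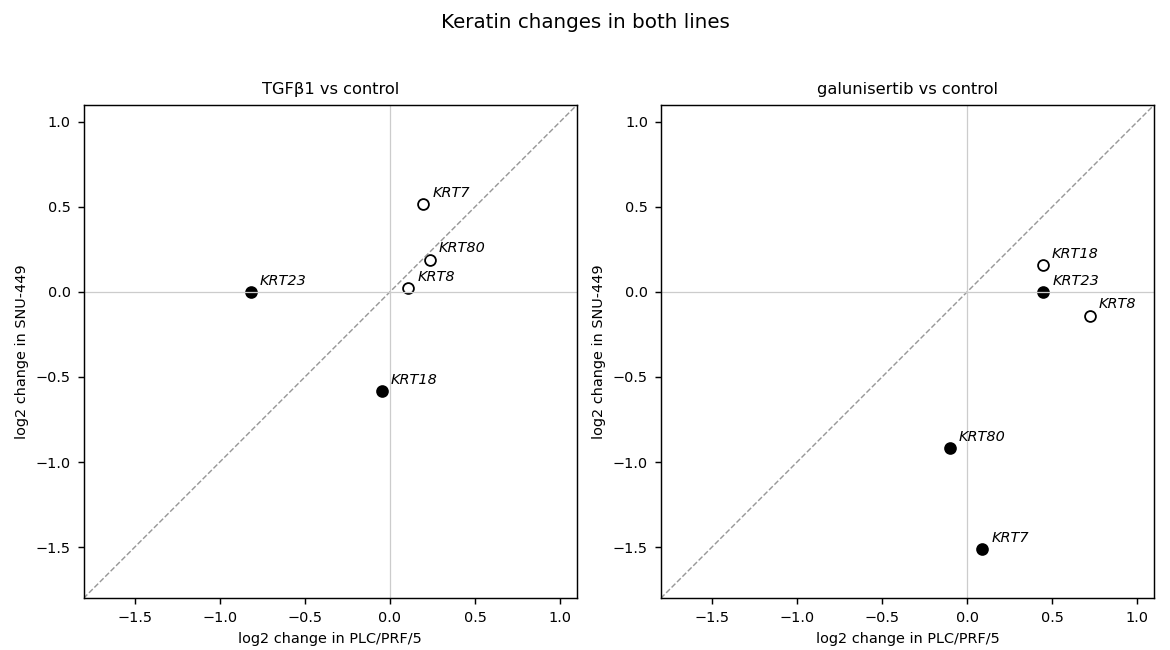
Mean log2 change of 5 keratins in PLC/PRF/5 (horizontal) and SNU-449 (vertical) with TGFβ (left) and galunisertib (right), filled where the difference between lines was called; the dashed line marks equal change. With galunisertib KRT7, KRT8 and KRT80 lie farthest below the line, KRT8 as an open point since its difference was not called. With TGFβ KRT18 lies farthest below it. KRT23 lies at 0 on the vertical axis since it was at the floor in SNU-449. KRT19 and KRT81 are left out for their floor values and outlying spots.

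The remaining keratin genes were mostly low. Of 25 other type I keratins, 6 were tested in PLC/PRF/5 and 8 in SNU-449, and of 21 other type II keratins 7 in each line. In each treatment comparison 0 to 2 of the type I and 0 or 1 of the type II genes were called in either direction, where limma called 1.9% to 39.1% of all genes. *KRT15*, a type I keratin of basal epithelial cells, followed the same order of groups as *KRT23* in PLC/PRF/5 except that both agents lay level with galunisertib. It read 1.00, 0.62 and 0.50 in controls, 0.22, 0.26 and -0.12 with TGFβ, 1.75, 1.46 and 1.29 with galunisertib, and 1.76, 1.29 and 1.16 with both. Its lower level with TGFβ was not called. It rose by 1.29 from TGFβ to both agents (limma, adjusted p 5.1e-04), a call that held under all 15 other settings, and by 0.80 with galunisertib (adjusted p 0.0393), a call lost without any 1 replicate number (0.77 to 0.82). In SNU-449 *KRT15* read -0.55, -0.98 and -0.90 in controls and -1.52, -1.25 and -1.28 with TGFβ. There it read -0.10, -0.13 and -0.69 with galunisertib, and -0.56, -0.45 and -0.26 with both.

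*KRT83*, a hair type II keratin whose sequence is close to that of *KRT81* and *KRT86*, was called in both lines. In SNU-449 it read 2.48, 2.64 and 2.82 in controls, 3.27, 3.12 and 3.30 with TGFβ, 0.89, 0.95 and 1.25 with galunisertib, and 2.11, 2.39 and 1.96 with both. It fell by 1.62 with galunisertib and by 1.07 from TGFβ to both (limma, adjusted p 3.5e-04 and 5.7e-04). Its rise of 0.58 with TGFβ (adjusted p 0.0268) was lost without any 1 replicate number (0.48 to 0.64). In PLC/PRF/5 it read 2.38, 2.32 and 2.42 in controls and 2.85, 3.01 and 2.86 with galunisertib, a rise of 0.53 (adjusted p 0.0134) also lost without any 1 replicate number (0.46 to 0.58). The galunisertib change differed between the lines by -2.15 (adjusted p 5.6e-07). Transcripts of these close relatives may share signal on a probe, which was not tested.

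Genes that anchor keratin filaments were read by counts. Of 21 genes of desmosomes and keratin anchoring 15 were tested in each line. TGFβ raised 4 and lowered 0 in PLC/PRF/5, and raised 2 and lowered 2 in SNU-449, with medians of 0.11 and -0.11 beside -0.04 and 0.02 over all genes. Of all genes 6.27% rose and 7.24% fell in PLC/PRF/5, and 5.73% rose and 4.75% fell in SNU-449. In SNU-449 *DSP*, the desmoplakin that ties keratin filaments to desmosomes, rose by 0.89 (limma, adjusted p 2.8e-05), and *PPL*, periplakin, fell by 1.49 (adjusted p 1.6e-04). From TGFβ to both agents *DSP* fell by 0.98 and *PPL* rose by 2.12 (adjusted p 9.2e-06 and 9.7e-06), and these 4 calls held under all 15 other settings. In PLC/PRF/5 *PPL* rose by 0.58 with TGFβ (adjusted p 0.0152), a call lost without any 1 replicate number (0.43 to 0.67), and the lines differed by -2.07 (adjusted p 9.9e-07).

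With galunisertib alone 1 of these 15 genes rose and 1 fell in PLC/PRF/5, and 3 rose and 1 fell in SNU-449, with medians of 0.07 and 0.13 beside 0.05 and 0.09, and against 5.42% and 7.43% of all genes called. In SNU-449 *PPL* rose by 1.43 (limma, adjusted p 6.1e-04). *ITGB4*, the hemidesmosomal integrin, rose by 0.74 and *JUP*, plakoglobin, by 0.72 (adjusted p 0.00601 and 0.00523), both lost without replicate 1 or 3, with ranges of 0.59 to 0.94 and 0.60 to 0.89. *PKP2*, a desmosomal plakophilin, fell by 2.47 (adjusted p 0.0292), lost without replicate 2 or 3 (-2.74 to -2.17). Of 15 other intermediate filament genes 11 were tested in PLC/PRF/5 and 10 in SNU-449, and TGFβ raised 0 and 1 of them and lowered 0 in both, against 13.5% and 10.5% of all genes called. *NES*, nestin, fell by 0.98 from TGFβ to both agents in SNU-449 (adjusted p 2.2e-04), under all 15 other settings too.

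Of 12 biliary and progenitor genes, 9 were tested in PLC/PRF/5 and 7 in SNU-449. TGFβ raised 3 and lowered 0 in PLC/PRF/5, and raised 1 and lowered 1 in SNU-449, with medians of 0.19 and 0.06 beside -0.04 and 0.02, and against 13.5% and 10.5% of all genes called. *SPP1*, osteopontin, rose by 2.33 in PLC/PRF/5 (limma, adjusted p 6.8e-06). *CLDN4*, a tight junction claudin, was 1.57 higher with TGFβ in SNU-449. It entered the tests of that line only through the TGFβ group. Its rise and its place among the genes raised are therefore given as a description. From TGFβ to both agents 1 of 9 rose and 5 fell in PLC/PRF/5, with a median of -0.42 beside 0.06 over all genes. Of all genes 25.8% rose and 13.3% fell there. *SPP1* fell by 1.56, and the 1 gene called higher was *SOX9*, a regulator of bile duct fate, by 1.17 (limma, adjusted p 3.4e-05 and 2.6e-04). In SNU-449 2 of 7 rose and 1 fell in that comparison, against 9.72% of all genes higher and 7.35% lower. Among them *AQP1*, a water channel of bile duct cells, rose by 1.98 (limma, adjusted p 4.3e-04).

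Of 14 epithelial regulators, 7 were tested in each line. With TGFβ limma called 0 of them in PLC/PRF/5, against 13.5% of all genes. From TGFβ to both agents 3 rose there, against 25.8% of all genes, the largest being *TFAP2C*, a transcription factor, by 0.91 (limma, adjusted p 1.2e-04). In SNU-449 TGFβ raised 1 and lowered 3, with a median of -0.35 beside 0.02 over all genes, of which 5.73% rose and 4.75% fell, and *TFAP2C* fell by 0.92 (adjusted p 3.2e-04). *ELF3*, an epithelial transcription factor, fell by 1.01 (adjusted p 0.0017), a call lost without replicate 3 (-1.15 to -0.84 over the replicates). From TGFβ to both agents 3 of 7 rose and 1 fell in SNU-449, with a median of 0.39 beside 0.01 over all genes. Of all genes 9.72% rose and 7.35% fell there. *ELF3* and *TFAP2C* rose by 1.24 and 1.14 (limma, adjusted p 2.7e-04 and 5.0e-05).

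The genes whose course over the 12 arrays of a line lay closest to each keratin were ranked by the root mean square difference in log2, each gene first centred on its controls. In PLC/PRF/5, over 14857 genes, *FOS* lay closest to *KRT23* (0.0850, where a gene that did not move would give 0.570), followed by *PEX14* and *ETV5*. *CARD9*, *MICALL2* and *SPRED2* lay closest to *KRT8*, and *PIP4K2C*, *DNLZ* and *CPSF4* to *KRT18*. In SNU-449, over 13979 genes, *ZC3H12A*, *MISP* and *ACTN1* lay closest to *KRT80*. The 12 arrays share their slides and treatments, and these ranks carry no test.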

How the data were processed

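RNA of 24 cultures was labelled with low-input Quick Amp kits and hybridised to Agilent SurePrint G3 human arrays. Per the file headers the authors extracted intensity values with Agilent Feature Extraction 10.7.3.1, whose processed signal is background-subtracted only. A GeneSpring table with the authors' log2 values of 30913 probes was deposited too. On 19267 probes it matched the log2 values used here (r of differences between arrays 0.999, across probes; slope 1.00), each probe centred on its median, and it served as an alternative.

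Control spots and 111 to 216 outlier spots per array were left out, spots of a probe averaged, signals divided by the array's 75th percentile (145 to 262), floored at 5.70% of it and log2 transformed. Of 58201 probes, 31104 were named through RefSeq, used for names only because the array follows an older build, and 10719 through LNCipedia. A probe was tested if all arrays of some group in the fit read it well above background, with limma 3.58.1 in R 4.3.3 over the 12 arrays of a line or all 24 between lines, tested on simulated data. The number of arrays limits the precision.

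The members and lists were chosen with earlier results of these data known. Named genes are the keratins, at most the 3 largest rises and falls called per other list and comparison, and the 3 closest genes per called keratin. Same-numbered arrays deviated together in every pair (r over 0.1) for TGFβ against control in PLC/PRF/5 (0.20 to 0.27) and SNU-449 (0.17 to 0.21) and for both agents against TGFβ in SNU-449 (0.10 to 0.26). Other settings numbered 12, with 1 more chosen after the data were seen. The normexp setting was run on the median spot signal in place of the mean. The genes closest to *KRT7* and *KRT18* in SNU-449 are not reported here.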

Additional observations from a re-analysis of the deposited data

Results flagged for a closer look

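The response of *KRT7* to galunisertib differed between the lines in the test of the difference itself, by -1.60 (SNU-449 minus PLC/PRF/5, log2). The same kind of test set apart *KRT80* with galunisertib, by -0.81, with PLC/PRF/5 at or near the floor, and *KRT18* with TGFβ, by -0.53. The values of *KRT23*, 0.82 with TGFβ and -0.45 with galunisertib, are its changes in PLC/PRF/5 with the sign turned, since SNU-449 was at the floor on all 12 arrays and had no level to change.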

How the results depend on the processing

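Of 25 keratin calls, 7 held under every alternative tried and 0 changed direction. These 7 were the 5 between untreated lines, *KRT23* from TGFβ to both agents in PLC/PRF/5, and the *KRT7* difference between lines with galunisertib. Of 1001 alternative values for keratins, 848 kept their direction and side of the threshold. Among 176 calls of other listed genes 72 held throughout, and *EVPL* between untreated lines turned to -0.016 with array-median scaling. That scaling moved the median of all genes between untreated lines from 0.06 to -0.28, and no scaling moved that of TGFβ in PLC/PRF/5 from -0.04 to 0.21. The causes of the changes below were not tested, and with 3 arrays a group the number of arrays limits what can be called.

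With the replicate number (slide) as a block, the keratins called from galunisertib to both agents in SNU-449 went from 2 to 1, with *KRT80* lost, and *KRT8* became a call in the galunisertib difference between lines (-0.86); the block changed no other keratin call. Same-numbered arrays did not deviate together in every pair in that SNU-449 comparison (r from -0.05 to 0.14).

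Keratins called numbered 3 and not 5 between untreated lines when a probe needed a signal above background on each array, and 1 in both differences between lines, where 2 (TGFβ) and 3 (galunisertib) had been called. With TGFβ in PLC/PRF/5, 1 call became 2 with normexp and 0 without scaling. With galunisertib in PLC/PRF/5, 3 became 0 with array-median scaling, without scaling and under the plain t-test. From TGFβ to both agents in PLC/PRF/5, 3 became 1 with array-median scaling and without scaling. From galunisertib to both in PLC/PRF/5, 1 became 0 with normexp, array-median scaling, no scaling, no filter and the t-test. In SNU-449, the TGFβ count of 1 became 0 with array-median scaling, and 2 under the t-test and with the low *KRT81* spots set missing. The galunisertib count of 2 became 0 under the t-test. The count of 2 from TGFβ to both became 1 with normexp, array-median scaling and no filter, and that of 2 from galunisertib to both became 0 with array-median scaling, no filter and the t-test and 1 with the authors' table. The TGFβ difference between lines had 1 call with array-median scaling and 0 without scaling, and the galunisertib difference 1 with the authors' table.

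Leaving out 1 replicate number gave 0 calls with galunisertib and 0 from galunisertib to both in PLC/PRF/5, 1 to 2 from TGFβ to both in PLC/PRF/5, 0 to 2 with TGFβ and from TGFβ to both in SNU-449, 0 to 1 with galunisertib and from galunisertib to both in SNU-449, and 1 in each difference between lines. *KRT19* between untreated lines and with TGFβ could not be given a value without replicate 2, where both groups were at the floor.

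The values that turned direction were all uncalled. Array-median scaling gave *KRT81* -0.22 between untreated lines, *KRT80* 0.10 (PLC/PRF/5, galunisertib), *KRT7* 0.025 and 0.064 (PLC/PRF/5, both against TGFβ and against galunisertib), *KRT8* -0.075 (SNU-449, both against galunisertib) and *KRT80* 0.062 (TGFβ, difference between lines). Normexp gave *KRT18* 0.043, *KRT80* -0.090 and *KRT81* 0.24 (PLC/PRF/5, TGFβ), *KRT81* -0.087 (PLC/PRF/5, galunisertib), *KRT18* -0.051 (SNU-449, galunisertib), *KRT80* 0.27 (TGFβ, difference between lines) and *KRT19* 0.15 (galunisertib, difference between lines). Quantile normalization gave *KRT18* 0.085 and *KRT81* 0.0027 (PLC/PRF/5, TGFβ), *KRT80* 0.075 and *KRT81* -0.032 (PLC/PRF/5, galunisertib), *KRT8* -0.24 (PLC/PRF/5, both against TGFβ) and *KRT8* -0.034 (SNU-449, TGFβ). No scaling gave *KRT18* 0.21 and *KRT81* 0.22 (PLC/PRF/5, TGFβ) and *KRT7* 0.15 (PLC/PRF/5, both against galunisertib). A floor lowered to 50% gave *KRT80* 0.034 and the authors' values gave 0.054 (PLC/PRF/5, both against galunisertib), and the latter *KRT19* 0.032 (galunisertib, difference between lines). The mean of all probes gave *KRT8* in SNU-449 -0.11 with TGFβ, 0.040 with galunisertib and 0.25 from TGFβ to both. With the low spots set missing, an alternative chosen after seeing the data, *KRT81* in PLC/PRF/5 gave 0.83 with TGFβ and -0.10 from TGFβ to both.

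Over the 3 left-out replicates *KRT81* ranged from -0.023 to 0.28 between untreated lines and, in PLC/PRF/5, from -0.76 to 0.95 with TGFβ, -0.099 to 0.21 with galunisertib and -0.13 to 1.48 from TGFβ to both. The ranges in PLC/PRF/5 with TGFβ were -0.00048 to 0.18 for *KRT8* and -0.14 to 0.043 for *KRT18*. With galunisertib they were -0.027 to 0.20 for *KRT7* and -0.33 to 0.065 for *KRT80*, and *KRT8* ranged from -0.011 to 0.072 from TGFβ to both. In SNU-449 *KRT8* ranged from -0.052 to 0.097 with TGFβ, -0.34 to 0.0082 with galunisertib, -0.22 to 0.012 from TGFβ to both and -0.28 to 0.29 from galunisertib to both. The TGFβ difference between lines ranged from -0.19 to 0.024 for *KRT8* and from -0.16 to 0.092 for *KRT80*.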
